A study of Homo sapiens with 4 samples.

Results

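Protein disulfide isomerases and the oxidases of the endoplasmic reticulum (ER) were described as a family of 10 genes: the isomerases P4HB, PDIA3, PDIA4, PDIA5, PDIA6, TXNDC5 and AGR2, the retention factor ERP44, and the oxidases ERO1A and ERO1B. They were chosen by name, and each probe set that named 1 of them and no other gene in the platform annotation was used. This gave 22 probe sets for 8 of the 10 genes, among 54613 probe sets for transcripts on the array. PDIA5 and TXNDC5 had 1 probe set each, which named a second gene as well (MIR7110 and BLOC1S5-TXNDC5), so neither has a value here.

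The cells were MCF10A, an immortalised, non-tumorigenic line of human breast epithelium, kept in DFCI-1 medium and harvested under normal growth. Total RNA was labelled with biotin without amplification and hybridised to Affymetrix U133 Plus 2.0 arrays. Cells of the control group (2 arrays) expressed a control short hairpin RNA, and cells of the group labelled double knockdown (2 arrays) expressed hairpins against CBL and CBLB, ubiquitin ligases that limit signalling by receptor tyrosine kinases. The labels state duplicates but not whether these were grown apart, nor whether the cells were a clone or a pool, so each p-value rests on array-to-array spread that may be purely technical. The RNA is from bulk cells, in which fewer cells of a kind and less RNA per cell cannot be told apart. The series title places the comparison in the context of proteome homeostasis.

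A few facts of the whole series bear on each value. CBL was lower, at intensities of 126 and 84.4 in the control and 31.1 and 29.0 on the arrays labelled double knockdown (log2 change -1.37 ± 0.15 SE, limma adjusted p = 0.00138) on its brightest probe set. Its 2 other probe sets above the brightness minimum, a mean intensity of 14.6, had log2 changes of -0.33 and -0.20. The mean of all CBL probe sets gave -0.41 (limma adjusted p = 0.0158). CBLB was higher, at 64.3 and 70.0 against 94.8 and 99.5 (log2 change 0.45 ± 0.09 SE, limma adjusted p = 0.0148). That call was lost without either array labelled double knockdown (adjusted p = 0.0890 and 0.143). The CBLB transcript therefore went against its label, and every direction below is that of the arrays labelled double knockdown against the control. Array medians lay between 14.5 and 14.7. Of 7 listed markers of basal mammary epithelium, 5 had a probe set of their own and all 5 reached the brightness minimum, among them CDH1 (log2 change 0.01) and the keratins KRT5 (-0.73) and KRT14 (-1.62). ITGB4 (-0.37, limma adjusted p = 0.116, unadjusted p = 0.0300) and EGFR (-0.08, limma adjusted p = 0.832) had negative changes and were not called. The summed intensity of these 5 was 24372 and 25082 in the control and 11475 to 12164 on the labelled arrays, where KRT14 and KRT5 were lower. The part of this difference in the results below was not tested. Leukocyte, endothelial and fibroblast markers had summed intensities of 22.7 to 25.7, 35.2 to 41.6 and 146 to 175 over both groups, and PTPRC, CDH5 and PDGFRB lay below the minimum. COL1A1 alone read 122 to 144.

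Proteins of the secretory pathway acquire disulfide bonds in the ER. A disulfide isomerase passes its own disulfide to a client protein, or breaks and reshuffles wrong pairings, and an oxidase of the ERO1 kind then reoxidises the isomerase and hands the electrons to oxygen. Transcripts of many of these proteins are known to rise when misfolded proteins accumulate in the ER, through the transcription factors ATF6 and XBP1, which bind the ER stress element (the letters CCAAT and CCACG separated by 9 bases). In mammary and other secretory epithelia the system serves the folding of secreted and surface proteins, and AGR2 is best known from mucus-producing and hormone-responsive epithelia.

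Promoter windows from 250 bases before to 50 bases after the annotated start were found in the RefSeq table (GRCh38.p14) for 9 of the 10 genes, with 12 windows in all; PDIA3 was not matched. The ER stress element was matched on either strand in the window of ERO1B and in 1 of 2 windows of PDIA6, and in 27 of 35116 windows (0.0769%) of the whole table. The UPR element TGACGTGG was matched in 1 of 2 windows of TXNDC5, against 0.729% of all windows. The CCAAT box, which is also a part of the ER stress element, was matched in windows of P4HB, PDIA4, PDIA6, TXNDC5, ERP44 and ERO1B, against 34.6% of all windows. ER stress element II (ATTGG and CCACG with 1 base between them, in 0.0541% of all windows) and the core of the amino acid response element (TGATGNAAT; 0.991%) were not matched in any of the 12. These matches describe letters in a window and do not show binding. Only exact matches were sought and bases outside the windows were not searched, so no match does not mean that a gene lacks the element.

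**Figure D1:**
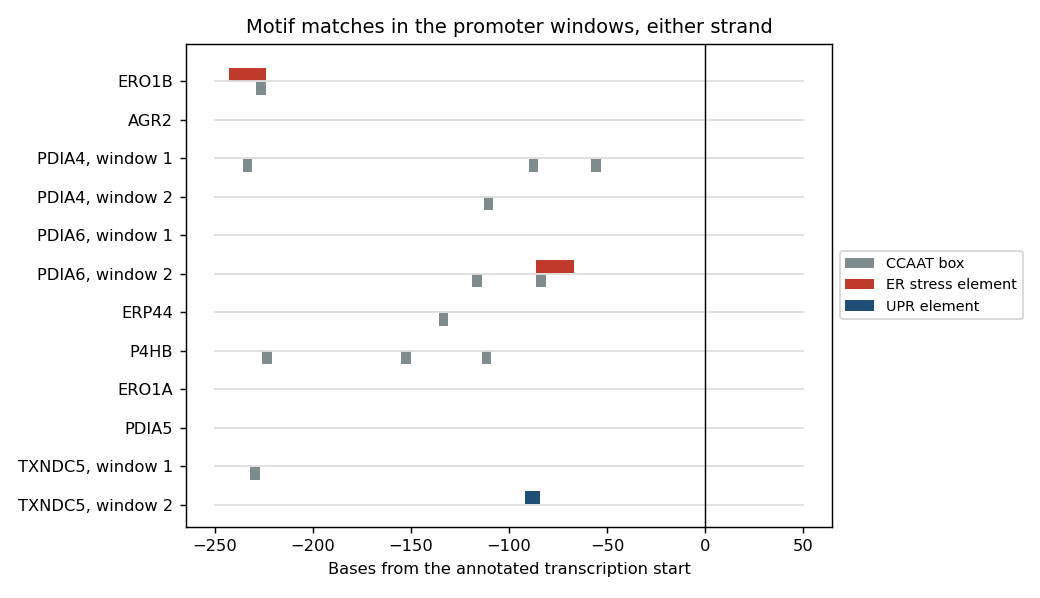
Positions of motif matches in the promoter windows of 9 genes, as bases from the annotated transcription start (x axis; 1 row per window, either strand). The ER stress element appears once in ERO1B, far from the start, and once in window 2 of PDIA6, close to it, while the windows of AGR2, ERO1A and PDIA5 hold no match.

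The 250 bases before the start are shown for 5 genes that differed in their change. ERO1B and PDIA6 hold the ER stress element, PDIA4 and AGR2 rose with no exact match to it in their windows, and P4HB was not called. Each stretch is written 5′ to 3′ on the strand of the gene (the minus strand in all 5). Matches to the ER stress element or the CCAAT box are in capitals. The regions are chr1:236281959-236282208 for ERO1B, chr2:10812786-10813035 for PDIA6, chr7:149028491-149028740 for PDIA4, chr7:16805000-16805249 for AGR2 and chr17:81860536-81860785 for P4HB. PDIA6 is shown by its second window and PDIA4 by its first.
ERO1B: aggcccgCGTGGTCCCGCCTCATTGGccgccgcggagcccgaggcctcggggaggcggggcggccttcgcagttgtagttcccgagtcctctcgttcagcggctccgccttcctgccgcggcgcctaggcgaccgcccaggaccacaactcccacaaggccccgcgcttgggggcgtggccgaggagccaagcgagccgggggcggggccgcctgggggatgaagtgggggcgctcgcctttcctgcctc
PDIA6: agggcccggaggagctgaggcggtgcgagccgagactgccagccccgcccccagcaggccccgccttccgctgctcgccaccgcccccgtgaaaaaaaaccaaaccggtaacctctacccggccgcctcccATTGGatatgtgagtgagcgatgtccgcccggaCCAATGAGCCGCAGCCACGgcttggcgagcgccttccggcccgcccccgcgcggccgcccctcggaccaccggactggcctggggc
PDIA4: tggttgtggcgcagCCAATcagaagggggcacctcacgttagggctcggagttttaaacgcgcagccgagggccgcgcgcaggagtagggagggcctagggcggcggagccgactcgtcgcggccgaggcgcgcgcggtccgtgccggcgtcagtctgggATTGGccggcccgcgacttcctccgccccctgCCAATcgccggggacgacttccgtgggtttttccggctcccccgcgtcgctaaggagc
AGR2: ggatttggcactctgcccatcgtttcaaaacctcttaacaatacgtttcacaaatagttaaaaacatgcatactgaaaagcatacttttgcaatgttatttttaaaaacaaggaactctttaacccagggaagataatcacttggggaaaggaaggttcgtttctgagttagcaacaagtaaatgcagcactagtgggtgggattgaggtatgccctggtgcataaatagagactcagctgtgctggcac
P4HB: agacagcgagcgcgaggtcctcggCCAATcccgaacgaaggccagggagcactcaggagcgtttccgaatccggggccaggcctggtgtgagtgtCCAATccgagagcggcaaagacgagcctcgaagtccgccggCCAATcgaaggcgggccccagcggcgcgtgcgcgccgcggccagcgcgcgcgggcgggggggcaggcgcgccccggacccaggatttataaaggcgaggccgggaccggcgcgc
The element of ERO1B lies on the opposite strand, at positions -243 to -225 from the start, and that of PDIA6 on the strand of the gene, at -86 to -68. The windows of P4HB, ERO1A, ERO1B, PDIA6 (the second) and PDIA4 (the first) were rich in G and C, at 73.7%, 80.3%, 73.3%, 74% and 71.7%, against a median of 58.7% over all windows. The windows of AGR2 (43.7%, with 6 CpG pairs) and the second of PDIA4 (48.7%, with 3) lay below it, where all windows had a median of 14 CpG pairs.

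The comparison asked which members of the family differed between the groups. The transcripts of 6 genes rose and none fell by limma with Benjamini-Hochberg adjustment over all 12970 genes tested (called at adjusted p under 0.05): ERO1B, AGR2, PDIA4, PDIA6, ERP44 and PDIA3. P4HB and ERO1A were not called. Thus 6 of 8 measured members were called higher, where 9.4% of all genes tested were, and 0 of 8 lower, where 6.59% were. No member was lower at an unadjusted p under 0.05 by limma either, where 1883 of the 12970 genes tested were. In the same 6 members both arrays labelled double knockdown lay above both control arrays, against 28.1% of all genes tested. The median log2 change of the 8 was 0.71, against -0.01 over all genes tested. These counts and the median include ERO1B, which entered the test only through the arrays labelled double knockdown. Its control values, 12.5 and 10.5, lay below the brightness minimum.

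**Figure D2:**
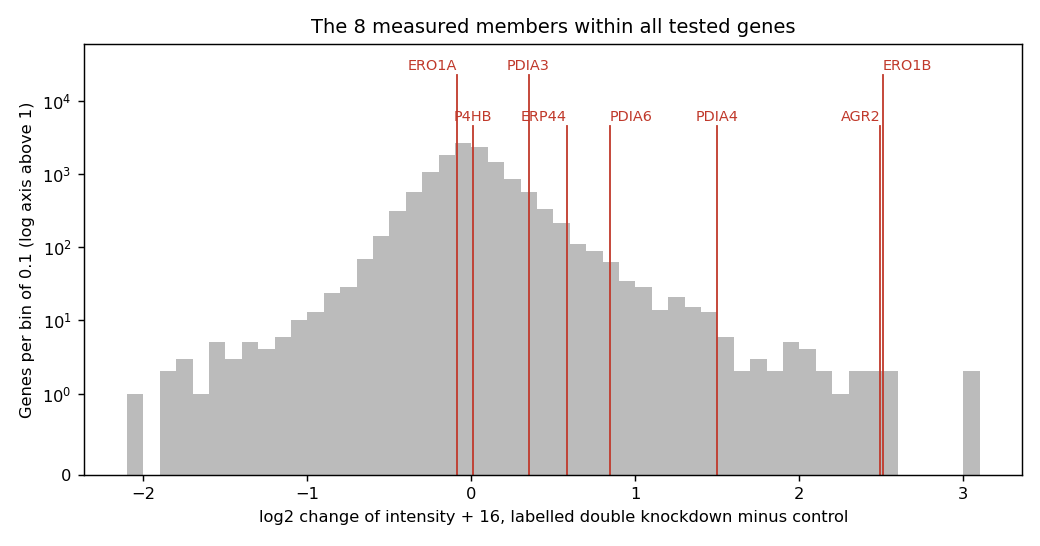
Number of tested genes (y axis, logarithmic above 1) by log2 change of intensity + 16, arrays labelled double knockdown minus control (x axis, bins of 0.1), with the 8 measured members as red lines. ERO1B and AGR2 lie at the right edge, near 2.5, and P4HB and ERO1A lie in the middle of the distribution.

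Values were taken as log2(intensity + 16), so fold changes understate the change of dim transcripts. A gene was represented by its brightest probe set and entered the test if that probe set averaged at least 14.6, the median intensity on the arrays. Single probe sets were tested in the same way over the 27356 that reached this minimum. Of the 22 probe sets of members 20 reached it, and 13 of these 20 were called higher, where 7.87% of all were, and none lower, where 5.18% were. No member probe set was lower at an unadjusted p under 0.05 in this fit, but 1 was with a constant of 64 and 1 without the brightness filter. In 16 of the 20 both arrays labelled double knockdown lay above both control arrays, against 28.4% of all probe sets, and in 1 (P4HB, 200656_s_at) they lay below, against 28.2%. The count of 13 was 4 without labelled double knockdown replicate 1 and 5 without replicate 2, and the count over all genes, 2074 (16%), was then 658 and 454. The member count stayed at 4 or 5 of 8 in the 4 fits that left out 1 array.

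**Figure D3:**
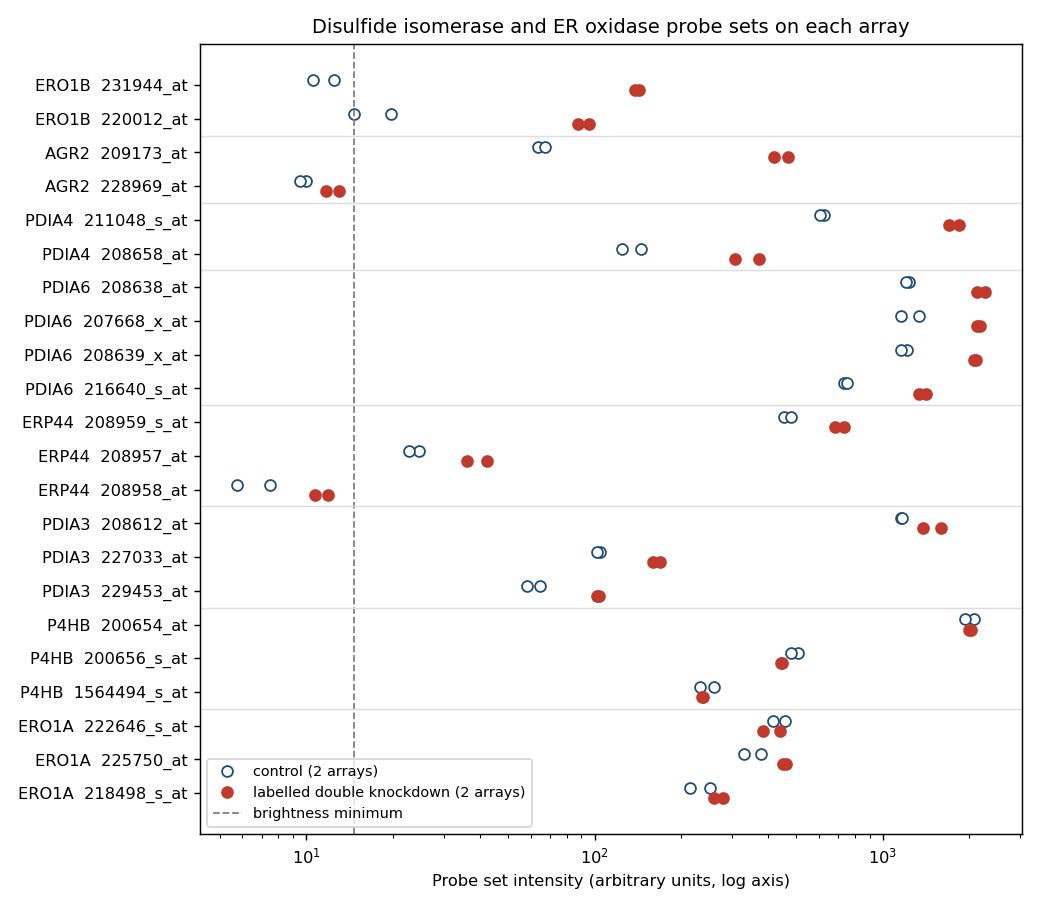
Intensity of each of the 22 member probe sets (x axis, logarithmic, arbitrary units) on the 2 control arrays (open blue) and the 2 arrays labelled double knockdown (filled red), grouped by gene, with the brightness minimum of 14.6 as a dashed line; levels of different probe sets are not comparable. The red points lie to the right of the blue points in all probe sets of ERO1B, AGR2, PDIA4, PDIA6, ERP44 and PDIA3, and the groups overlap in 2 of 3 for P4HB and 1 of 3 for ERO1A.

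The oxidases of the ERO1 pair gave different values. ERO1B is known to be induced by the unfolded protein response and is abundant in insulin-secreting cells. Its brighter probe set (231944_at) read 12.5 and 10.5 in the control and 143 and 138 on the labelled arrays. The control values were below the brightness minimum, and both labelled arrays lay far above them. The gene was called higher (limma adjusted p = 1.33e-05), but it entered the test through the labelled arrays, and the size of its change is set by the constant: the fitted log2 change was 2.51 for a constant of 16, 3.22 for 4 and 1.44 for 64. The second probe set (220012_at) read 19.7 and 14.6 against 95.5 and 87.8 and was called as well (log2 change 1.70 ± 0.10 SE, limma adjusted p = 0.000248 over probe sets). Both probe sets of ERO1B were called in every alternative in which they were tested.

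ERO1A, the widely expressed form, was not called. Its brightest probe set (222646_s_at) read 417 and 459 in the control and 439 and 385 on the labelled arrays, so the groups overlapped. The log2 change was -0.09 ± 0.10 SE, with a 95% interval from -0.32 to 0.15 (limma adjusted p = 0.627). The other probe sets did not overlap between groups. That of 225750_at read 377 and 331 against 463 and 450.1 (log2 change 0.35 ± 0.09 SE, limma adjusted p = 0.0510 over probe sets), and that of 218498_s_at read 251 and 214 against 260.1 and 279 (0.20 ± 0.10 SE, adjusted p = 0.243). The probe set 225750_at was called in 6 of the 14 alternatives in which it was tested, and the other probe sets of ERO1A in none. Without probe sets of the types _s_at and _x_at, which can match several transcripts, ERO1A was represented by 225750_at and was called higher at adjusted p = 0.0383. The sign of the fitted change of ERO1A therefore differed between its probe sets. The negative value, that of 222646_s_at, had an interval from -0.32 to 0.15, so its direction was not settled. The difference between ERO1A and ERO1B was not tested.

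ERP44 binds ERO1 proteins through a mixed disulfide and returns them to the ER, since they carry no retention signal of their own. It read 455 and 482 in the control and 684 and 737 on the labelled arrays on its brightest probe set (208959_s_at). The groups were apart, and the rise was 1.50-fold (log2 change 0.58 ± 0.09 SE, limma adjusted p = 0.00582). The call was lost without labelled double knockdown replicate 2 (log2 change 0.53, adjusted p = 0.0762). A dimmer probe set (208957_at) read 24.6 and 22.7 against 42.3 and 36.1 and was called over probe sets (log2 change 0.47 ± 0.09 SE, limma adjusted p = 0.0204), but not in any fit without 1 array (adjusted p up to 0.177). The third (208958_at) lay below the minimum, at 7.49 and 5.76 against 10.7 and 11.9, and was not in the adjusted test.

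Among the isomerases, PDIA4 (ERp72), which carries several thioredoxin-like domains and acts in a chaperone complex with BiP, showed one of the larger changes. It read 628 and 605 in the control and 1846 and 1693 on the labelled arrays on its brighter probe set (211048_s_at). The labelled arrays were both well above the control, by 2.82-fold (log2 change 1.50 ± 0.09 SE, limma adjusted p = 8.38e-05), rank 34 from the highest. The other probe set (208658_at) read 145 and 124 against 374 and 308 (log2 change 1.24 ± 0.12 SE, limma adjusted p = 0.00158 over probe sets), with adjusted p = 0.0518 without labelled double knockdown replicate 1. PDIA4 kept its call under all 15 alternatives, with log2 changes of 1.24 to 1.56.

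PDIA6 (P5), an isomerase that also works with BiP and can attenuate signalling of the stress sensor IRE1, was measured by 4 probe sets. The brightest (208638_at) read 1231 and 1205 in the control and 2266 and 2129 on the labelled arrays. The groups were apart and the rise was 1.79-fold (log2 change 0.84 ± 0.09 SE, limma adjusted p = 0.000956). The other 3 had log2 changes of 0.78 (207668_x_at), 0.81 (208639_x_at) and 0.87 (216640_s_at), with adjusted p of 0.00430, 0.00203 and 0.00161 over probe sets by limma. All 4 were called, and the widest gap between arrays of a group was that of 207668_x_at in the control, at 1340 and 1160.02. Over probe sets, the 4 lost their calls without either labelled double knockdown array, with adjusted p up to 0.103. At the level of genes the call held in all 15 alternatives, though not always on the same probe set. Without control replicate 2 and without labelled double knockdown replicate 1, PDIA6 was represented by 207668_x_at, with log2 changes of 0.68 and 0.77.

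PDIA3 (ERp57), which works with the lectin chaperones calnexin and calreticulin on glycoproteins, rose less. Its brightest probe set (208612_at) read 1153 and 1169 in the control and 1592 and 1381 on the labelled arrays. The control arrays were close together and the labelled arrays spread more widely, above them. The rise was 1.27-fold (log2 change 0.35 ± 0.10 SE, limma adjusted p = 0.0487). This call lay near the threshold: it was lost in 7 of 15 alternatives, among them each fit without 1 array (adjusted p of 0.0849 to 0.339), and the same probe set had adjusted p = 0.0586 in the test over probe sets. The dimmer probe sets were called there: 227033_at read 104 and 102 against 169 and 160 (log2 change 0.60 ± 0.08 SE, limma adjusted p = 0.00649), and 229453_at read 64.7 and 58.4 against 102 and 104 (log2 change 0.62 ± 0.09 SE, adjusted p = 0.00670). Both lost the call without either labelled double knockdown array (adjusted p up to 0.129). With the mean of the 3 probe sets, PDIA3 had a log2 change of 0.52 and limma adjusted p = 0.00545.

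P4HB, the founding disulfide isomerase PDI, which is also a subunit of collagen prolyl 4-hydroxylase and of the microsomal triglyceride transfer protein, was not called on any of its 3 probe sets. The brightest (200654_at) read 2076 and 1925 in the control and 1991 and 2029.97 on the labelled arrays, which lay between the control values. Its log2 change was 0.01 ± 0.09 SE with a 95% interval from -0.20 to 0.21 (limma adjusted p = 0.969). The second (200656_s_at) read 507 and 479 against 446 and 443, without overlap, at a log2 change of -0.15 ± 0.08 SE (limma adjusted p = 0.316 over probe sets). The third (1564494_s_at) read 233 and 259.7 against 237 and 238, with overlap, at -0.05 ± 0.09 SE (adjusted p = 0.784). These intervals do not show that P4HB was the same in both groups, and that of 200656_s_at ran from -0.34 to 0.05.

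AGR2, a small isomerase-like protein with a single active-site cysteine, read 63.7 and 67.4 in the control and 419 and 469 on the labelled arrays (209173_at). Both labelled arrays lay far above both control arrays. The rise was 5.63-fold (log2 change 2.49 ± 0.09 SE, limma adjusted p = 1.40e-05), rank 5 from the highest, and the ratio of mean intensities without the constant was 6.77. The second probe set (228969_at) lay below the minimum, at 9.93 and 9.47 against 13.0 and 11.7 (log2 change 0.14 ± 0.05 SE, unadjusted p = 0.0383 by limma without the brightness filter). With the mean of both, the log2 change of AGR2 was 1.32, and its call held in all 15 alternatives.

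**Figure D4:**
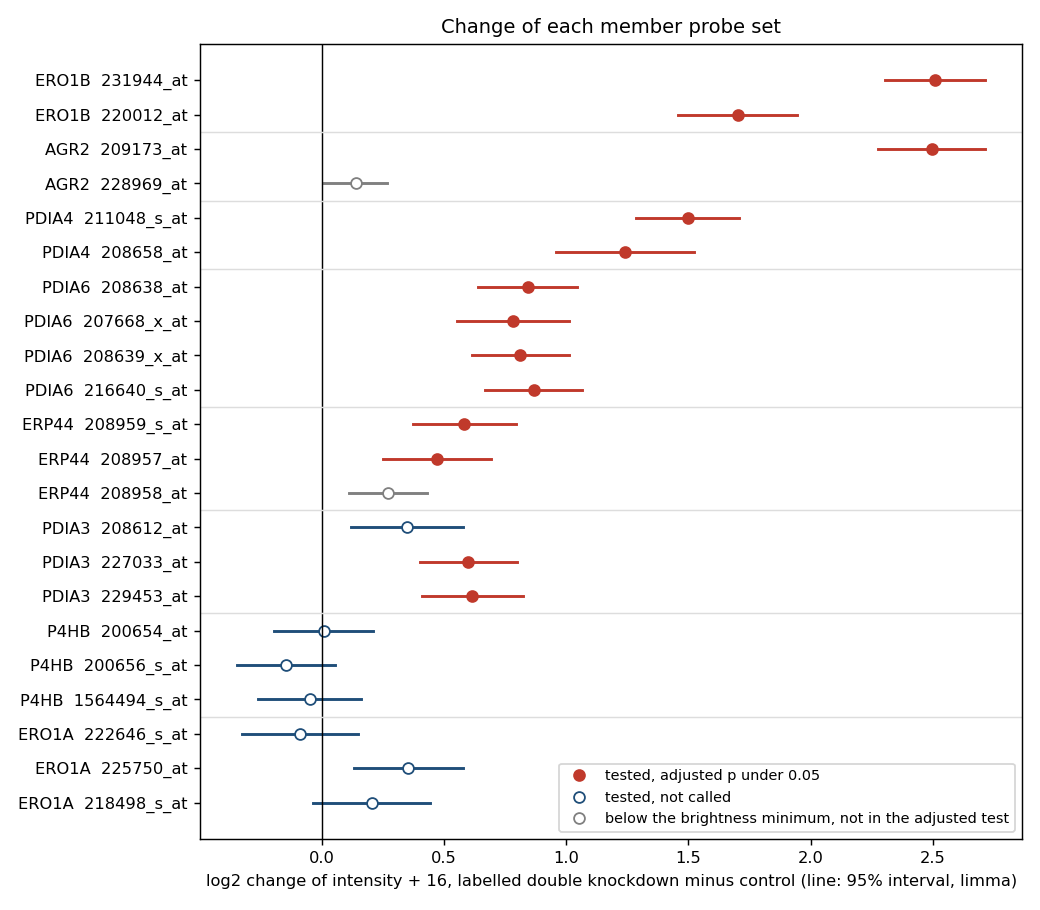
Log2 change of each member probe set (x axis, intensity + 16, arrays labelled double knockdown minus control) with its 95% interval from limma, grouped by gene (filled red: called over probe sets; open blue: not called; grey: below the brightness minimum). The 13 red points belong to ERO1B, AGR2, PDIA4, PDIA6, ERP44 and PDIA3. The points of P4HB (-0.15 to 0.01) and ERO1A (-0.09 to 0.35) are open, and the interval of 225750_at of ERO1A lies above 0.

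The order of the 8 genes by log2 change, ERO1B, AGR2, PDIA4, PDIA6, ERP44, PDIA3, P4HB and ERO1A, has neighbours that cannot be separated by their intervals. The interval of ERO1B (2.31 to 2.71) overlapped that of AGR2 (2.28 to 2.71) almost fully. The interval of PDIA6 (0.64 to 1.04) overlapped that of ERP44 (0.38 to 0.79), as did ERP44 with PDIA3 (0.12 to 0.58), PDIA3 with P4HB (-0.20 to 0.21), and P4HB with ERO1A (-0.32 to 0.15). The places of the first 3 depended on the settings. A constant of 4 kept them (3.22, 2.69 and 1.51). AGR2 lay above ERO1B without control replicate 2 (2.53 against 2.46) and without labelled double knockdown replicate 1 (2.57 against 2.49). With the mean of their probe sets AGR2 had 1.32 ± 0.06 SE and PDIA4 1.37 ± 0.09 SE, and with a constant of 64 ERO1B had 1.44, PDIA4 1.43 and AGR2 1.97. Among genes outside the family, those nearest to ERO1B over the 4 arrays, by root mean square distance of log2 values centred on the control mean, were SDF2L1 (0.083) and HMOX1 (0.107). HMOX1 (0.035) and SDF2L1 (0.050) were nearest to AGR2, and SEL1L (0.030) and DNAJC3 (0.046) to PDIA4. SDF2L1 and DNAJC3 are ER co-chaperones, SEL1L belongs to the degradation machinery of the ER, and HMOX1 is haem oxygenase. The log2 changes of SDF2L1, DNAJC3, SEL1L and HMOX1 were 2.47, 1.43, 1.51 and 2.53. With 2 arrays per group the distance mostly reflects the size of the change, so nearness does not show a shared pattern. Few genes changed this much: the bins of 0.1 from 2.4 and from 2.5 held 2 genes each, ERO1B and AGR2 among them.

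Other genes of ER disulfide chemistry were taken from lists of names. Of 13 other members of the isomerase family 10 were tested, 2 rose, where 9.4% of all genes tested did, and none fell, where 6.59% did. At an unadjusted p under 0.05 by limma 3 were higher and 0 lower, where 2080 and 1883 of all 12970 genes tested were. The median log2 change was 0.13. DNAJC10 (ERdj5), a reductase that prepares misfolded proteins for degradation, read 788 and 734 in the control and 1050.5 and 962 on the labelled arrays (log2 change 0.40 ± 0.09 SE, limma adjusted p = 0.0264). TMX1, a membrane-bound isomerase, read 1113 and 1114 against 1426 and 1339 (log2 change 0.31 ± 0.09 SE, limma adjusted p = 0.0483). TMX1 lost its call in each fit without 1 array (adjusted p up to 0.304) and with a constant of 4 (0.0817), and DNAJC10 without control replicate 2 or either labelled double knockdown array (up to 0.209). TXNDC11 (log2 change 0.37, limma adjusted p = 0.0773) and TXNDC16 (0.20, 0.293) were not called. TXNDC11 had adjusted p = 0.0228 without control replicate 1.

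Of 12 other ER oxidases, peroxidases and redox proteins 11 were tested, of which 2 rose (9.4% of all genes tested) and 2 fell (6.59% of all), with a median log2 change of 0.11. SELENOS, a selenoprotein of the machinery that removes misfolded proteins from the ER, read 709 and 758 in the control and 1386 and 1504 on the labelled arrays (log2 change 0.96 ± 0.09 SE, limma adjusted p = 0.000682). GPX8, a peroxidase that uses isomerases as its reductant, read 390 and 340 against 470.1 and 502 (log2 change 0.40 ± 0.10 SE, limma adjusted p = 0.0315). Its second probe set, also above the brightness minimum, had a log2 change of 0.10. The mean of both gave 0.25 (limma adjusted p = 0.0481). PRDX4, the peroxiredoxin that offers an oxidase-independent route to disulfides, was lower, at 2433 and 2499 against 2001 and 1977 (log2 change -0.31 ± 0.08 SE, limma adjusted p = 0.0439). SELENON, a selenoprotein of the ER membrane linked to calcium handling, was lower as well, at 67.6 and 53.0 against 43.1 and 39.1 (log2 change -0.41 ± 0.11 SE, limma adjusted p = 0.0442). SELENOS kept its call in all 14 alternatives in which it was tested. PRDX4 lost it in each fit without 1 array (adjusted p up to 0.267) and with quantile (0.0516) or loess (0.0595) normalization or a constant of 4 (0.0778). SELENON lost it without control replicate 1 or either labelled double knockdown array (up to 0.267), and GPX8 without control replicate 2 or either labelled double knockdown array (up to 0.232). Without the brightness filter neither SELENON (0.105) nor GPX8 (0.0650) was called, nor was SELENON with a constant of 64 (0.0872) or GPX8 with a constant of 4 (0.0518).

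Of 9 partner proteins of members 8 were tested, 2 rose (9.4% of all genes tested) and none fell (6.59% of all). At an unadjusted p under 0.05 by limma 4 were higher and 1 lower, where 2080 and 1883 of all 12970 genes tested were. The median log2 change was 0.12. CALR, calreticulin, the lectin chaperone that recruits PDIA3, read 223 and 198 in the control and 488 and 469.97 on the labelled arrays (log2 change 1.13 ± 0.09 SE, limma adjusted p = 0.000337). P4HA1, the catalytic subunit that pairs with P4HB in prolyl 4-hydroxylase, read 584 and 592 against 1078 and 1123 (log2 change 0.89 ± 0.08 SE, limma adjusted p = 0.000695). Its second probe set lay below the brightness minimum, and with the mean of both the log2 change was 0.45. CALR and P4HA1 kept their calls in every alternative in which they were tested. The 1 lower at an unadjusted p was P4HA2, a relative of P4HA1, named after its value was seen (log2 change -0.25, limma adjusted p = 0.0879). The aminopeptidase ERAP1, a client of ERP44, had a log2 change of 0.30 (limma adjusted p = 0.0530) and calnexin (CANX) 0.28 (0.0842). Over probe sets above the brightness minimum, log2 changes ran from 0.0028 to 0.30 for ERAP1 and from 0.18 to 0.54 for CANX. The last 2 were called in some alternatives and not in others, with adjusted p of 0.0423 to 0.283 for ERAP1 and 0.00449 to 0.344 for CANX.

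**Figure D5:**
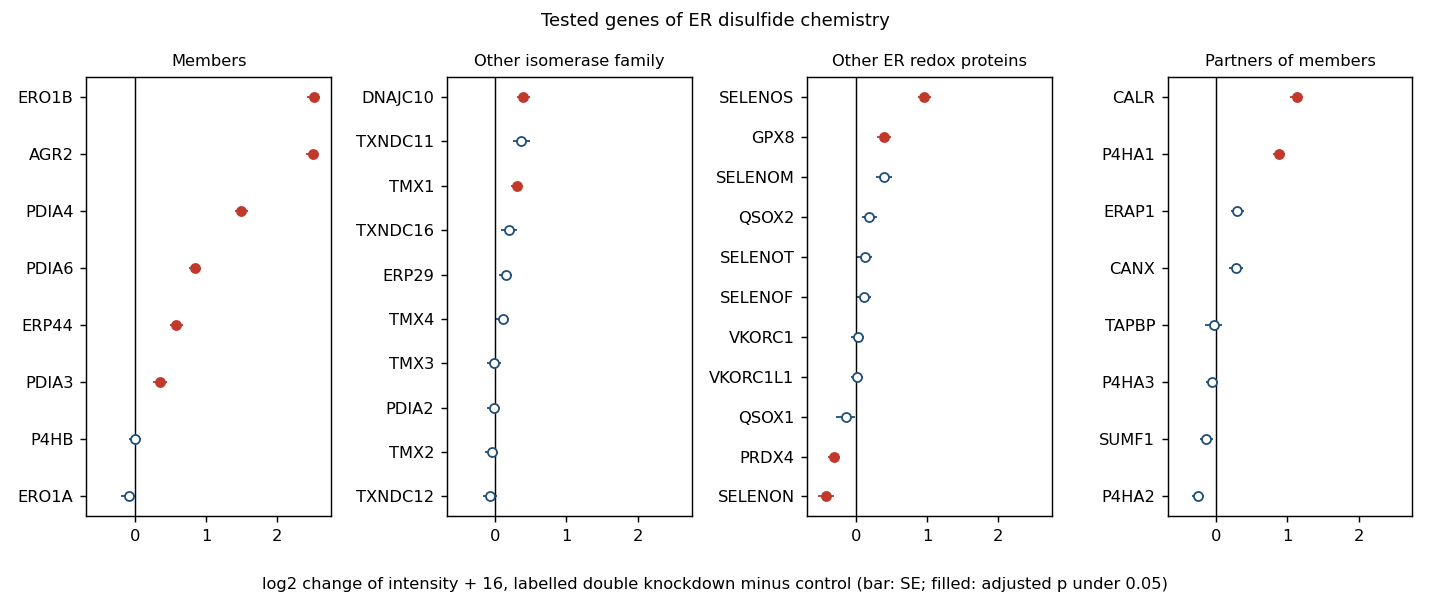
Log2 change (x axis, intensity + 16, arrays labelled double knockdown minus control) with its SE for each tested gene among the members, the other isomerase family, the other ER redox proteins and the partners of members, each from its brightest probe set (filled red: limma adjusted p under 0.05). The members reach from -0.09 to 2.51 and the other lists from -0.41 to 1.13.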

How the data were processed

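Total RNA of MCF10A cells was measured on 4 1-colour arrays, 2 per group, grouped by sample title. The authors deposited 1 intensity per probe set and array, taken as linear because of the range of values, and their summarisation and normalization are not given in the sources used here. No further normalization was applied, since array medians were nearly equal. Scanner values were not analysed here.

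Of 54675 probe sets 62 controls were left out, 41091 named 1 gene, 1801 several and 11721 none; current symbols came from RefSeq (GRCh38.p14), by gene identifier, for 41037 of them. Each gene stood by its brightest probe set. Differences in log2(intensity + 16) were evaluated by limma (version 3.58.1, R 4.3.3; lmFit, eBayes, two-sided, no covariate, all 4 arrays), adjusted by Benjamini-Hochberg over all genes or probe sets that reached the median intensity, 14.6, and called at adjusted p under 0.05. Standard errors and 95% intervals are moderated. The test was checked on simulated data. The number of arrays limits the precision. The members, lists, tests and motifs were chosen with earlier results of these data known. Named genes were all members with every probe set, CBL and CBLB, and up to 4 genes of each pathway list with the smallest p. All called genes of such a list were added where 5 or fewer were called in a direction. For the 3 members with the largest change, the 2 nearest genes by distance over the arrays were added. Alternatives changed the scaling, the constant, the brightness filter, the probe sets used, the prior, the replicate block and the arrays.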

Additional observations from a re-analysis of the deposited data

How the results depend on the processing

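The count of 6 members called higher lay between 4 and 7 over 15 alternatives, and 0 members were called lower in each of them. Leaving out 1 array, the count of member probe sets called higher lay between 4 and 12 (13 with all arrays), and that of all genes called between 454 and 2037 (2074 with all arrays). Such fits leave 1 array in a group, whose spread is assumed to be that of the other group. Of 326 values of 22 named genes under an alternative, 277 kept their direction and their side of the threshold, 35 kept the direction and lost the call, 7 gained a call and 7 turned in direction. The last were of P4HB and ERO1A. Averaging the probe sets of each gene, P4HB had a log2 change of -0.062 and ERO1A of 0.16, neither called. Leaving out 1 array, P4HB lay between -0.046 (without control replicate 2) and 0.062, and ERO1A between -0.18 and 0.27 (without control replicate 2), none called. Without labelled double knockdown replicate 2 the values were -0.0059 and 0.0042. ERO1A had 0.35 (adjusted p = 0.0383) without _s_at and _x_at probe sets; in that setting and without control replicate 2 another probe set, 225750_at, was the brightest. With the sample number as a replicate block, 6 members, 13 member probe sets and 2504 genes were called. The numbers in the titles are not stated to mark a shared culture or day, and same-numbered arrays deviated together with a correlation of 0.24 across genes, from 2 pairs only.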

Other observations

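The ER stress element found in the windows of ERO1B and PDIA6 was also looked up across the rest of the promoter table, a list made after values were seen. Windows of 25 genes held it, and 16 of these genes were tested. By limma 10 rose and none fell, with a median log2 change of 0.66. At an unadjusted p under 0.05 by limma none was lower, where 1883 of all 12970 genes tested were. Without ERO1B and PDIA6, 8 of 14 rose, where 9.4% of all genes tested did, and the median was 0.54 against -0.01 over all. The genes include textbook targets of the unfolded protein response, so the count is no independent test of the element. Among these targets were HSPA5, the chaperone BiP (log2 change 1.92), CRELD2 (1.87), CALR (1.13), HSP90B1 (1.02) and XBP1 (1.02). TMEM120A (0.78, limma adjusted p = 0.00128), SYNPO (0.54, 0.0136) and TRIM5 (0.54, 0.0128) were called as well. CANX, SERP1, ALG12, FICD, EIF2A and GLRA2 had log2 changes of 0.28, 0.22, 0.17, 0.18, 0.04 and 0.03 and were not called. CRELD2 and ALG12 share 1 stretch of sequence, as do SERP1 and EIF2A, so their windows are not independent. Of the members that rose, PDIA4, AGR2 and ERP44 had no match in their windows. Whether the element had a part in any of these changes was not tested.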
